A study of Mus musculus with 6 samples.

Results

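Telomerase and shelterin were examined at the RNA level in germline stem (GS) cells, cultured mouse spermatogonia that include cells able to restore spermatogenesis after transplantation. The genes were taken by name from a list drawn up with earlier results of these data known: Tert and Dkc1 of telomerase, Terf1, Terf2, Tinf2, Terf2ip, Acd, Pot1a and Pot1b of shelterin, and the telomere helicase gene Rtel1. All 10 were found among the 32285 genes of the deposited count table, and all 10 passed the filter on low counts as did 15104 genes in total. The GS cells had been derived from testes of DBA/2 pups, 2 to 3 days old, that carried the EGFP transgene Tg14(act-EGFP-OsbY01), so both groups carry it. They were grown with GDNF and FGF2 on mouse embryonic fibroblast feeder cells, frozen, and kept for 6 months aboard the International Space Station (Space GS cells) or in a freezer on Earth (Ground GS cells). RNA was taken on the day after thawing, from 3 Space and 3 Ground libraries. The study describes its replicates as 3 lines per group, and no label says whether a Space and a Ground library come from the same line. The treatment label of each of the 6 libraries says the opposite of its title, and the titles were followed here, as in the column names of the table, so every sign below would turn if the treatment label were right.

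Telomeres are the repeat-capped ends of chromosomes, and they shorten at each round of DNA replication unless telomerase extends them. Telomerase joins a reverse transcriptase, TERT, to an RNA template that is held by dyskerin, the product of Dkc1, and its partners. Shelterin coats the repeats: TERF1 and TERF2 bind the double-stranded DNA, TINF2 bridges them, TERF2IP sits on TERF2, and ACD links TINF2 to POT1, which holds the single-stranded end and, through ACD, brings in telomerase. Mice carry a pair of POT1 paralogues, POT1A and POT1B, where humans have a single protein. The male germ line is known for keeping telomerase active, because the telomeres it passes on set those of the next generation. The study asked whether storage in space changed gene expression in these cells, with genes of DNA repair, senescence and apoptosis in mind.

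Promoter windows of RefSeq (GRCm38.p6), from 250 bases before to 50 bases after an annotated start, matched 9 of the 10 genes, and no window was matched to Terf1. Windows are printed for Tert, the catalytic subunit, for the paralogues Pot1a and Pot1b, and for Tinf2, which shares a motif with Pot1a. These were chosen after the letters had been read. Each runs 5′ to 3′ on the strand of its gene, and capitals mark matches to the GC box GGGCGG or the cAMP response element TGACGTCA on either strand. The matches of both motifs do not overlap each other.
Tert (chr13:73626661-73626960, plus strand): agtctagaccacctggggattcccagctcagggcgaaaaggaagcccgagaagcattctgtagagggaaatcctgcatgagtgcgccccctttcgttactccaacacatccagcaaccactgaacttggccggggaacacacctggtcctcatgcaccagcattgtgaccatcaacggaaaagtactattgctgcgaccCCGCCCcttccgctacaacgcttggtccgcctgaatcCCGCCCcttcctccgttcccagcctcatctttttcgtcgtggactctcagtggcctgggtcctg
Pot1a (chr6:25809169-25809468, minus strand): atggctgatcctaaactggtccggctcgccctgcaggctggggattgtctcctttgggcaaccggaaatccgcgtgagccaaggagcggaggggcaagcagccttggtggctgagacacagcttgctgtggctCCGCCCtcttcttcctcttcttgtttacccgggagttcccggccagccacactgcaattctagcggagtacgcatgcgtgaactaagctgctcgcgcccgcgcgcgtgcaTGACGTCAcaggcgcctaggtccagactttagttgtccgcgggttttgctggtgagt
Pot1b (chr17:55712575-55712874, minus strand): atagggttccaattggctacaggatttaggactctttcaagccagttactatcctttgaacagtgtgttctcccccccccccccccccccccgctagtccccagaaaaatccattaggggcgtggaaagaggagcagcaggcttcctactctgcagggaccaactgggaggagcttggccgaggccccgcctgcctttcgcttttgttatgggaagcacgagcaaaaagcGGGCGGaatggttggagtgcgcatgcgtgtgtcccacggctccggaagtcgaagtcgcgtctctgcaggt
Tinf2 (chr14:55681768-55682067, minus strand): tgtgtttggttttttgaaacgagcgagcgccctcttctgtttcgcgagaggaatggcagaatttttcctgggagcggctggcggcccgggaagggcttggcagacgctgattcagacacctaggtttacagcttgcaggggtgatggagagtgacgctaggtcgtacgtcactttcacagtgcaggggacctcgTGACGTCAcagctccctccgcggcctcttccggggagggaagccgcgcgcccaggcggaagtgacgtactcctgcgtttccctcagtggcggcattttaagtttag
The Tert window held 2 GC boxes, whose first bases lay 51 and 14 bases before the start. A GC box was found in 6 of the 9 genes with a window (Tert, Pot1a, Pot1b, Rtel1, Terf2 and Terf2ip) and in 35.7% of all 32851 RefSeq windows of the same length. The cAMP response element was found in 2 of the 9, beginning 7 bases before the Pot1a start and 56 bases before the Tinf2 start, and in 1.79% of all windows. The E-box CACGTG, the site of Myc proteins, was in none of the 9 windows and in 7.15% of all windows. No factor binding was measured, so these matches describe the letters alone, and the RNA of these genes follows.

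The libraries held between 19015985 and 24110916 counts, of which the 10 genes together took 12809 to 17058. Mitochondrial transcripts made up 11.5% of the counts in Ground-2 and 7.12% in Space-2, against 2.51% to 5.7% in the other libraries. Ground-2 and Space-2 also had the fewest counts. The 8 germ cell markers were detected in every library, at a summed level of 2313 to 2438 CPM in Ground and 2333 to 2437 CPM in Space, where CPM is the TMM-scaled count relative to library size. They ranged from Nanos2, at 4.78 to 12.1 CPM, to Dazl, at 782.1 to 963.6 CPM. The 8 feeder fibroblast markers were also detected, at a summed level of 686.2 to 759.0 CPM in Ground and 583.1 to 730.4 CPM in Space, and all 8 had negative log2 fold changes (median -0.39). Of these 8, 0 passed after adjustment, 3 had an unadjusted p under 0.05, and 3 (Col1a2, Col3a1 and Vim) passed with the crossed pairs described next as block. The shares over all genes tested were 0%, 0.609% and 0.252%. As these are bulk libraries, fewer cells of a type and less RNA per cell cannot be told apart, and the part of feeder RNA in the levels below was not tested. The libraries resembled each other across the groups rather than within them. Counts differed least between Ground-1 and Space-3, Ground-2 and Space-2, and Ground-3 and Space-1, where the median chi-square was 1.55 to 2.65 times its expectation under sampling noise, against 5.07 to 10.5 in the other pairs of libraries. These are called crossed pairs below. They come from the values and not from a label. Fits that block on them therefore reuse the same counts, and their p-values and calls are descriptions and not independent tests.

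Every gene of the set was expressed in all 6 libraries, and none differed between Space and Ground GS cells beyond the spread between replicates. With edgeR's quasi-likelihood test, 0 of the 10 genes had an adjusted p under 0.05, 0 had an unadjusted p under 0.05, and the smallest unadjusted p was 0.381 (Acd). Over all 15104 genes tested, 0% passed after adjustment, where the smallest adjusted p was 0.9999, and 0.609% had an unadjusted p under 0.05. Log2 fold changes were positive in Space for 5 of the 10 genes and negative for 5, with a median of 0.00074 against -0.0020 over all genes. The median size of the change, regardless of sign, was 0.019 for the 10 genes and 0.052 for all genes. The latter include many genes of lower counts, where counting error is larger, so these medians are not matched for level. The 95% interval of the log2 fold change stayed within 0.3 of 0 for 10 of 10 genes. The lowest limit was -0.26 (Pot1b) and the highest 0.22 (Tert), which correspond to folds of 0.833 and 1.161. The groups overlapped in all 10 genes, as they did in most genes tested. Of all genes, 3.59% had groups that did not overlap (1.61% with Space higher and 1.98% with Space lower), so 0 of 10 is near that share.

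**Figure D1:**
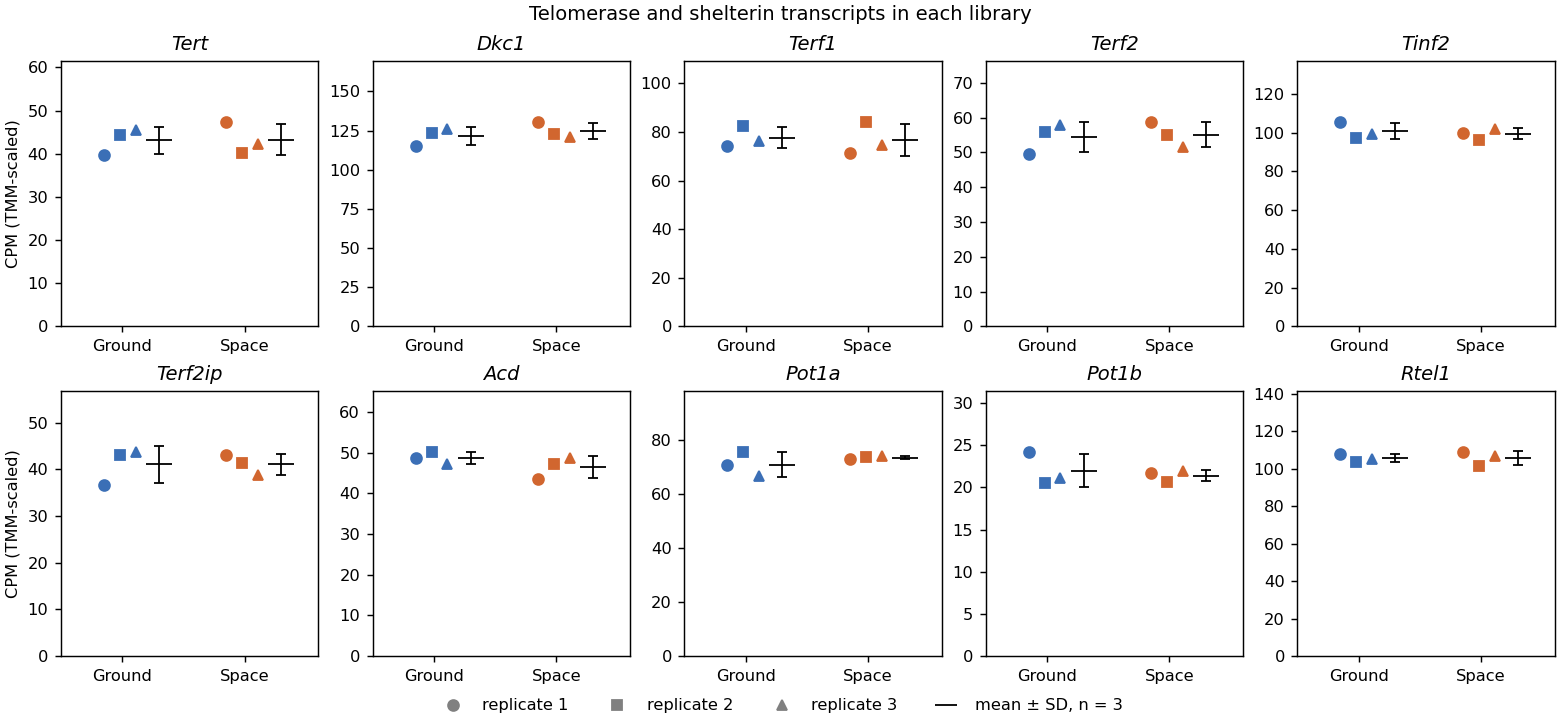
Each panel plots the TMM-scaled CPM of a single gene in the 3 Ground libraries (blue) and the 3 Space libraries (orange), with the shape of a point giving the replicate number and the black bar the mean ± SD (n = 3); each axis starts at 0. The groups overlap in all 10 genes, and the highest library is at most 1.20 times the lowest in any gene.

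Tert (ENSMUSG00000021611, chromosome 13, 73626911 to 73649843, GENCODE M21 on GRCm38) encodes the reverse transcriptase of telomerase. In replicates 1, 2 and 3, in that order here and below, its level was 39.6, 44.2 and 45.5 CPM for Ground and 47.3, 40.2 and 42.2 CPM for Space. The lowest value was thus in a Ground library and the highest in a Space library, while the other Space libraries lay below the other Ground libraries. Mean levels were 43.1 ± 3.09 CPM for Ground and 43.2 ± 3.63 CPM for Space (SD, n = 3). The log2 fold change was 0.0054 (SE 0.091, 95% interval -0.21 to 0.22, edgeR adjusted p = 0.9999). Tert had 755 to 1148 raw counts per library.

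Dkc1 (ENSMUSG00000031403, chromosome X, 75095854 to 75109777) encodes dyskerin, which binds and stabilises the telomerase RNA and also takes part in pseudouridylation of ribosomal RNA. Its levels were 115.2, 123.2 and 126.1 CPM in the Ground libraries and 130.3, 122.8 and 121.2 CPM in the Space libraries. Ground-1 was lowest and Space-1 highest, as for Tert. The log2 fold change was 0.038 (SE 0.060, 95% interval -0.10 to 0.18, edgeR adjusted p = 0.9999). Annotated exons of Mpp1 on the opposite strand cover 1.09% of the Dkc1 exon bases. The telomerase RNA gene Terc was not analysed here.

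The double-strand binding subunits were Terf1 (ENSMUSG00000025925, chromosome 1, 15805646 to 15844052) and Terf2 (ENSMUSG00000031921, chromosome 8, 107069400 to 107096547). Terf1, whose product restrains telomere lengthening and eases replication of the repeats, had 74.3, 82.4 and 76.2 CPM in Ground and 71.2, 84.0 and 74.8 CPM in Space. The pair of Ground-2 and Space-2 stood above the other 4 libraries, and Space-1 was lowest. Terf2, whose product keeps chromosome ends from being joined, had 49.5, 56.0 and 57.8 CPM in Ground and 58.6, 55.1 and 51.6 CPM in Space. Here Ground-1 and Space-3 were lowest, and Ground-3 and Space-1 highest. The log2 fold changes were -0.019 (SE 0.079) for Terf1 and 0.019 (SE 0.084) for Terf2, each with an edgeR adjusted p of 0.9999. Of the 76-base sequences in Terf1 transcripts, 1.39% also occur in transcripts of other genes, mostly Zfp60, so a small share of its reads could have been lost or shared.

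Tinf2 (ENSMUSG00000007589, chromosome 14, 55674689 to 55681820) encodes the hub that joins TERF1, TERF2 and ACD. It had 105.3, 97.2 and 99.5 CPM in Ground and 99.98, 96.2 and 101.9 CPM in Space, so that the whole range was 1.09-fold. Ground-1 and Space-3 were highest and Ground-2 and Space-2 lowest. The log2 fold change was -0.018 (SE 0.057, 95% interval -0.15 to 0.11, edgeR adjusted p = 0.9999). Annotated exons of Gmpr2 on the opposite strand cover 31.2% of the Tinf2 exon bases, and whether reads were counted by strand is not given in the sources used here, so its counts are uncertain to that extent.

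Terf2ip (ENSMUSG00000033430, chromosome 8, 112011398 to 112020528) encodes RAP1, the partner of TERF2. Its values were 36.6, 43.1 and 43.8 CPM in Ground and 43.2, 41.5 and 38.7 CPM in Space, in which Ground-1 and Space-3 were again lowest. The log2 fold change of -0.00065 (SE 0.092) was the closest to 0 of the 10 genes, and it was positive with RLE scaling, total counts, DESeq2, limma-voom and either replicate block. Acd (ENSMUSG00000038000, chromosome 8, 105695860 to 105701102), the gene of the protein that bridges TINF2 to POT1 and recruits telomerase, gave 48.8, 50.2 and 47.2 CPM in Ground and 43.6, 47.2 and 48.8 CPM in Space. Its log2 fold change of -0.066 (SE 0.072, 95% interval -0.23 to 0.10, edgeR adjusted p = 0.9999) was the furthest from 0 of the 10. Space-1 was the lowest library, and without it the log2 fold change was -0.022. Acd was lower in Space in 3 of 3 crossed pairs, the only gene of the 10 with the same sign in all 3, whereas 27.9% of all genes tested had the same sign in all 3. Exons of Carmil2 on the opposite strand cover 33.3% of the Acd exon bases, with the same uncertainty as for Tinf2.

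The mouse POT1 paralogues differ in that POT1A chiefly holds back the ATR damage response at chromosome ends, while POT1B limits the trimming of the 5′ strand. Pot1a (ENSMUSG00000029676, chromosome 6, 25743737 to 25809246) had 70.7, 75.7 and 66.8 CPM in Ground and 73.1, 73.7 and 74.2 CPM in Space. The 3 Space values lay within the Ground range and closer together, at 73.6 ± 0.570 against 71.1 ± 4.48 (SD, n = 3). Pot1b (ENSMUSG00000024174, chromosome 17, 55651951 to 55712628) had 24.2, 20.6 and 21.1 CPM in Ground and 21.7, 20.6 and 21.9 CPM in Space, the lowest level of the set. Only Ground-1 stood clear of the others. The log2 fold changes were 0.052 (SE 0.064) for Pot1a and -0.037 (SE 0.098) for Pot1b, each with an edgeR adjusted p of 0.9999. None of the 76-base sequences in transcripts of either paralogue occurs in the other or in any other annotated gene, so reads of this length that match exactly tell them apart.

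Because both paralogues are read from the same library, their ratio needs no scaling between libraries. Pot1a counts per Pot1b count were 2.92, 3.68 and 3.16 for the Ground replicates, and 3.37, 3.57 and 3.39 for the Space replicates. Pot1a was thus above Pot1b in every library, and the Space ratios lay inside the Ground range. On the log2 scale the ratio averaged 1.69 ± 0.17 for Ground and 1.78 ± 0.047 for Space (SD, n = 3), with a difference of 0.087 (2-sided exact permutation p = 0.5, where 0.1 is the smallest p that 3 against 3 allow). Without Ground-1 the difference was 0.012 and without Ground-2 it was 0.18, so these libraries decide its size. These count ratios take no account of gene length, and the levels per length follow below.

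Rtel1 (ENSMUSG00000038685, chromosome 2, 181319739 to 181356616) encodes a helicase that unwinds telomere loops and secondary structures ahead of the replication fork. It was the steadiest of the 10 genes, with 108.0, 103.6 and 105.0 CPM in Ground and 108.9, 101.2 and 106.9 CPM in Space, a range of 1.08-fold. The log2 fold change was 0.0021 (SE 0.055, 95% interval -0.13 to 0.13, edgeR adjusted p = 0.9999). Its transcripts share no 76-base sequence with another annotated gene.

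**Figure D2:**
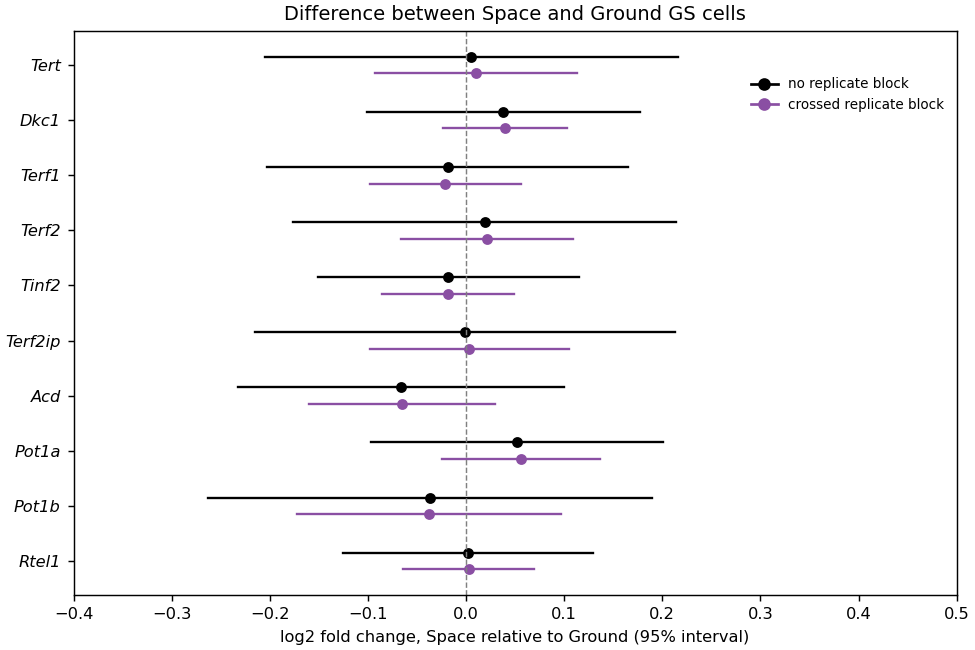
Points give the log2 fold change of Space relative to Ground GS cells for each gene and lines its 95% interval, without a replicate block (black) and with the crossed pairs as replicate block (purple). All 20 intervals include 0, and the black ones reach from -0.26 to 0.22. The purple ones rest on pairs read from the same counts, so their narrower width is a description.

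The fit without a block counts the resemblance of the crossed pairs as noise, so the same genes were also fitted with these pairs as block. The pairs were picked from these counts for their resemblance, so a smaller residual spread was built into that fit. Its intervals and p-values are given as a description. Standard errors fell from a range of 0.055 to 0.098 to one of 0.031 to 0.066, and the intervals then reached from -0.17 to 0.14. Under it 0 of the 10 genes passed, with a smallest unadjusted p of 0.166 (Pot1a, log2 fold change 0.056) and a smallest adjusted p of 0.828 in edgeR's test. Over all genes 0.252% passed with the block and 7.26% had an unadjusted p under 0.05. The within-pair differences of Acd were -0.11 for Space-1 against Ground-3, -0.089 for Space-2 against Ground-2 and -0.00089 for Space-3 against Ground-1 on the log2 scale. The furthest within-pair difference of any of the 10 genes was that of Pot1b in Space-3 against Ground-1, at -0.14.

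Levels were then compared between genes as CPM per kilobase of annotated exon. Dkc1 was highest, at 29.9 ± 1.22 CPM per kilobase (SD over 6 libraries), and Pot1b lowest, at 4.12 ± 0.257. Tert stood next to last by its mean, at 7.53 ± 0.527, with a range that overlapped those of Terf2ip and Pot1a. Between them, in falling order, came Tinf2 (20.3 ± 0.668), Terf1 (16.7 ± 1.09), Rtel1 (16.0 ± 0.435), Acd (13.1 ± 0.627), Terf2 (11.9 ± 0.776), Pot1a (8.35 ± 0.368) and Terf2ip (8.29 ± 0.579). The ranges over libraries overlapped between Terf1 and Rtel1, between Acd and Terf2, between Pot1a and Terf2ip and between Terf2ip and Tert, so the order of these neighbours was not apart beyond the spread over libraries. Within libraries, Terf2ip was nonetheless above Tert in 6 of 6. The ranges of the other neighbours did not overlap.

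**Figure D3:**
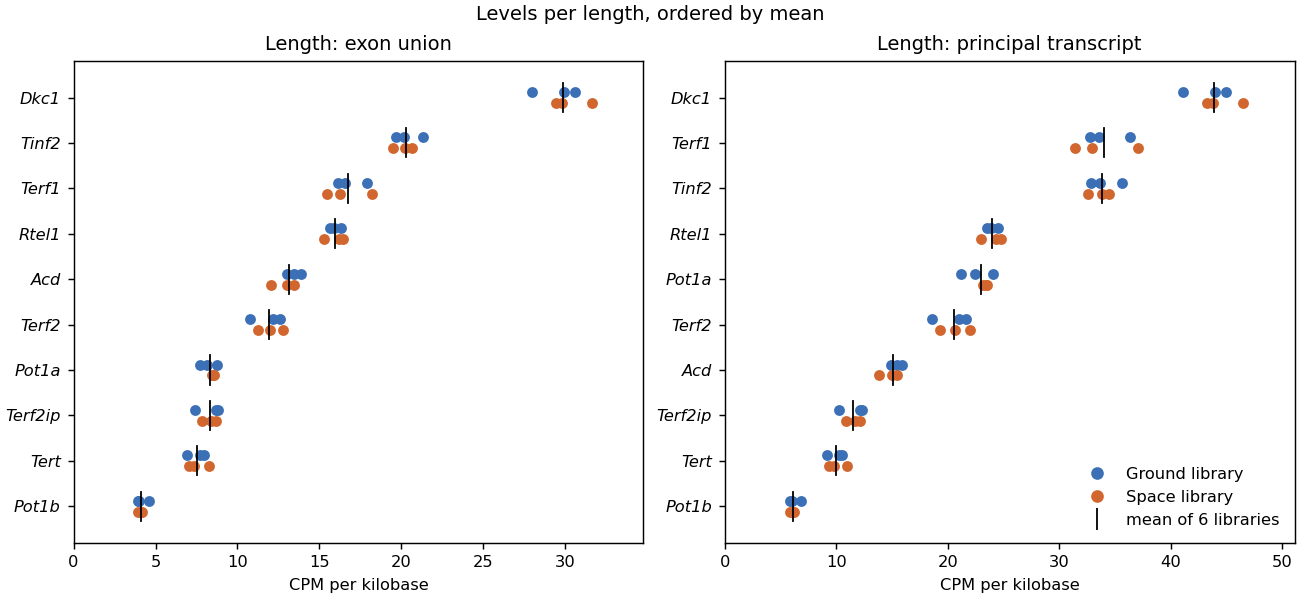
Each row plots CPM per kilobase of a gene in the 3 Ground libraries (blue) and 3 Space libraries (orange) with the mean of all 6 as a black line, using the union of annotated exons (left) or the longest principal transcript (right) as length. Dkc1 is highest and Pot1b lowest in both panels, with Tert next to last, while Tinf2, Terf1, Acd and Pot1a change places.

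The order depended in part on the length used. The exon union includes exons of every annotated isoform, and it is 8.67 kilobases for Pot1a, whose longest principal transcript has 3.15. With principal transcripts, a choice added after the values were seen, Pot1a moved from place 7 to place 5, Acd from 5 to 7, Terf1 from 3 to 2 and Tinf2 from 2 to 3. The other 6 genes kept their places, among them Dkc1, Tert and Pot1b. Within the 7 shelterin genes, Tinf2 contributed 23.2% to 26.1% of the summed CPM per exon kilobase in a library, Terf1 18.9% to 21.8% and Pot1b 4.59% to 5.62%. Counted per exon kilobase, the composition of shelterin transcripts therefore moved by a few percentage points between libraries. Shares by principal transcript were not computed, and the share of Tinf2 carries the uncertainty from Gmpr2 exons given above.

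The spread of the 10 genes over the libraries was set against counting error. The variance of the counts was 1.64 (Rtel1) to 6.77 (Terf1) times the counting expectation, with a median of 3.92 against 4.12 over all genes tested. This ratio depends on the count level, for which these medians are not matched. The coefficient of variation over the 6 libraries was 2.73% (Rtel1) to 6.99% (Tert), and its median was 5.50% against 10.6% over all genes, which include many of lower counts. For comparison, the coefficients of variation of the 8 germ cell markers ran from 4.34% (Sall4) to 43.5% (Nanos2) over the same libraries. Ddx4 stood at 4.43% and Zbtb16 at 7.10%, near the telomere genes. Etv5, a GDNF-responsive transcription factor gene of spermatogonial stem cells, stood at 40.2% and ranged from 93.0 to 261.8 CPM. The highest library exceeded the lowest by 1.08-fold (Rtel1) to 1.20-fold (Terf2ip) in the telomere genes.

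**Figure D4:**
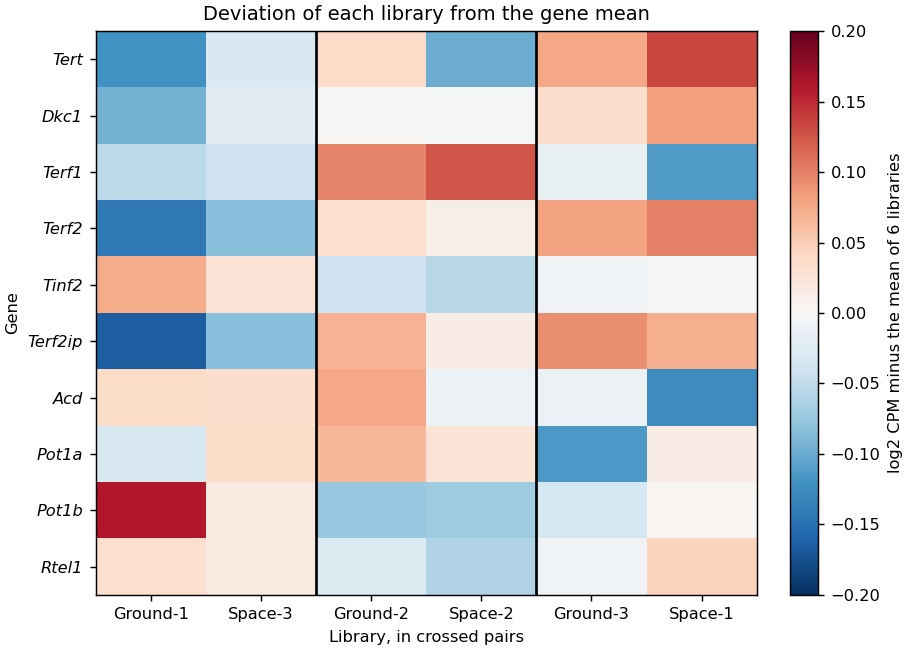
Colours give log2 CPM minus the mean of the 6 libraries for each gene (rows), with libraries (columns) set side by side in crossed pairs and black lines between the pairs. Terf2 and Terf2ip are low in Ground-1 and Space-3, Terf1 is high in Ground-2 and Space-2, and the deviations lie between -0.17 and 0.16.

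What variation there was followed the crossed pairs more than the groups. In 9 of the 10 genes a crossed pair held the 2 highest or the 2 lowest places among the 6 libraries, as it did in 74.5% of all genes tested. Ground-1 and Space-3 were the lowest for Dkc1, Terf2 and Terf2ip and the highest for Tinf2 and Pot1b. Ground-2 and Space-2 were the highest for Terf1 and the lowest for Rtel1, Tinf2 and Pot1b. Both libraries also had the highest mitochondrial shares and the fewest counts, and a link to these genes was not tested. Ground-3 and Space-1 were the highest for Tert, Dkc1, Terf2 and Terf2ip and the lowest for Acd, and Pot1a had no such order. For 19 of the 30 values in Space libraries the nearest Ground value of the gene was that of the crossed partner (63.3%, against 54.9% over all genes). The median log2 difference, regardless of sign, was 0.047 in crossed pairs, 0.076 in the other pairs between groups and 0.087 within groups. As the pairs were read from all genes, these are descriptions and not tests.

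Terf1 had the highest variance relative to counting error, and the genes most like it over the 6 libraries were therefore listed. Among 9509 other genes with a mean of at least 10 CPM, they were Zfp184, a zinc finger gene (Pearson's r of log2 CPM 0.991), Rpl28, a ribosomal protein gene (0.986), and Orc6, a subunit of the origin recognition complex (0.984). Zfp184 had 22.7, 26.8 and 23.0 CPM in Ground and 21.5, 27.8 and 22.8 in Space, again highest in Ground-2 and Space-2. With 6 libraries, 122 of these genes (1.28%) had an r above 0.9. Rtel1 had the opposite pattern to Terf1 (r = -0.96).

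Other genes of telomere maintenance were described from a list of 46, of which 45 were in the table and 44 were tested. Of the 44, 0 passed edgeR's test after adjustment, against 0% of all genes, and 0 had an unadjusted p under 0.05. Log2 fold changes were positive for 24 and negative for 20, with a median of 0.0056. By role, the positive and negative counts were 7 and 3 for partners of telomerase, 4 and 1 for the CST complex and primase, 7 and 8 for enzymes that act with shelterin, 3 and 4 for telomere chromatin and 3 and 4 for the meiotic attachment of telomeres. Zscan4c, a gene tied to bursts of telomere lengthening in embryonic stem cells, had 0 counts in all 6 libraries. Sequences that Zscan4c may share with other genes were not examined, so a lack of counts need not mean a lack of transcript.

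The genes of this list with the smallest p in either direction were the following. Pinx1, whose product binds TERT and can inhibit telomerase, had 24.5, 25.7 and 24.6 CPM in Ground and 27.0, 28.3 and 26.3 CPM in Space. All 3 Space libraries lay above the Ground libraries, and the log2 fold change was 0.13 (SE 0.079, edgeR unadjusted p = 0.152, adjusted p = 0.9999). Naf1, an assembly factor of box H/ACA particles such as telomerase, followed with 33.1, 32.2 and 32.3 CPM in Ground and 35.7, 33.5 and 35.2 CPM in Space (log2 fold change 0.097, SE 0.071). Daxx, a histone chaperone at telomeres, stood at 0.047 on the log2 scale (SE 0.056). On the negative side were Wrap53, which carries telomerase to Cajal bodies (-0.092, SE 0.089), Terb2, a meiotic telomere anchor (-0.15, SE 0.17), and Spdya, an activator of CDK2 at meiotic telomeres (-0.21, SE 0.28, on 180 counts in all libraries). Each of these had an edgeR adjusted p of 0.9999.

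In 4 of the 44 genes the groups did not overlap: Pinx1, Naf1, Daxx and Ruvbl1, a helicase subunit used in telomerase assembly that was named after its values were seen. All 4 were higher in Space. Over all genes tested, 3.59% had groups that did not overlap in either direction, and 1.61% with Space higher. Whether 4 of 44 is above these shares was not tested. Blocking on the crossed pairs left 0 of the 44 genes past edgeR's adjusted threshold, and Pinx1 (unadjusted p = 0.0444, adjusted p = 0.676) and Wrap53 (unadjusted p = 0.0336, adjusted p = 0.631) had an unadjusted p under 0.05, where 7.26% of all genes did. Spdya shares exon bases with Trmt61b and Mettl4-ps1, so its few counts are uncertain.

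**Figure D5:**
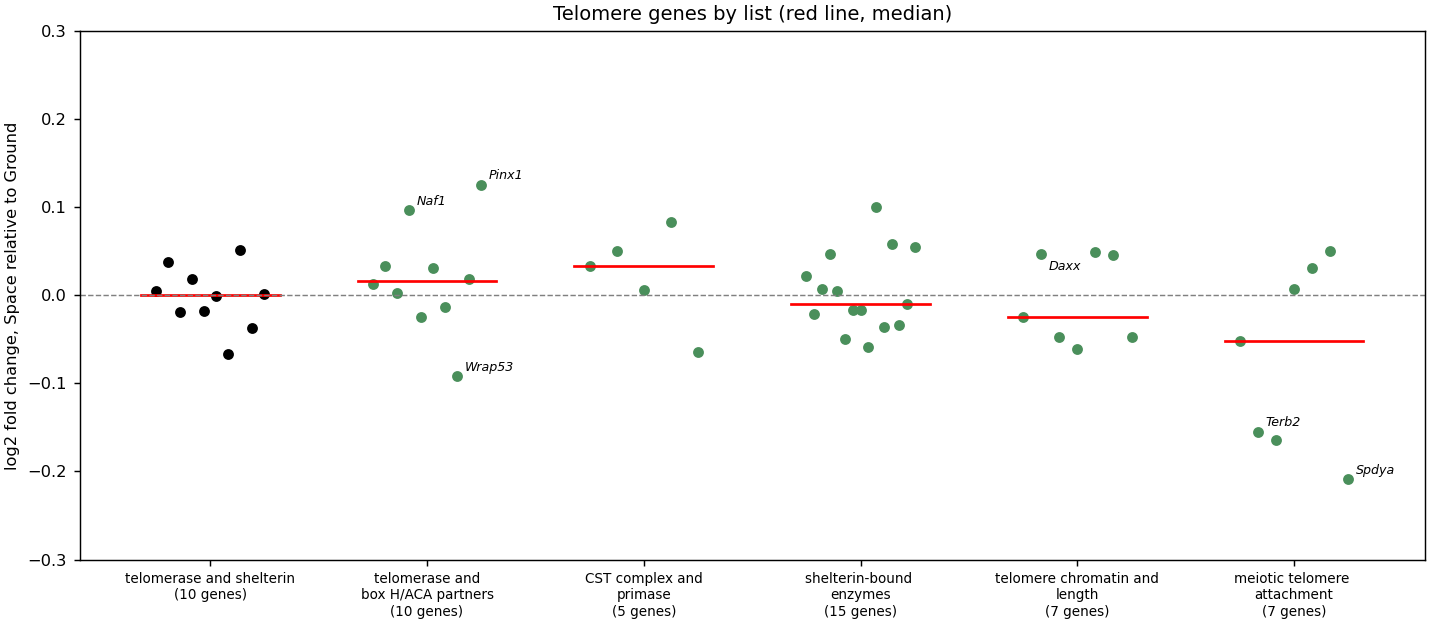
Each point is the log2 fold change of a gene, Space relative to Ground, for the 10 telomerase and shelterin genes (black, Rtel1 included) and for 44 other genes of telomere maintenance in 5 lists (green), with the median as a red line and the named genes of the lists labelled. All points lie between -0.21 and 0.13, and the 10 genes lie between -0.066 and 0.052.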

How the data were processed

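Poly(A) RNA of 6 GS cell libraries (3 Space, 3 Ground) was sequenced. The authors deposited raw counts per gene, without normalization. The submitters' processing notes name bcl2fastq 2.20, cutadapt 4.1, HISAT2 2.2.1, HTSeq 2.0.2 and mm10, and the methods name GENCODE M21 and single reads of 76 bases. The strand setting and the handling of shared reads are not given in the sources used here, and labels and methods differ in library kit and sequencer. Groups were taken from the titles. Positions, exon lengths and shared 76-base sequences came from GENCODE M21.

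Genes passing filterByExpr in edgeR 4.0.16 (R 4.3.3) were scaled by TMM and tested with the 2-sided quasi-likelihood F test across 15104 genes, without a replicate block. The p-values were adjusted by Benjamini-Hochberg (threshold 0.05). The standard error was the log2 fold change divided by the square root of F, and 95% intervals used the t distribution at the degrees of freedom of the fit. The labels call the 3 libraries of a group biological replicates, but nothing says which cultures were separate, so p-values measure the spread between these libraries, which may be technical. As alternatives, DESeq2 1.42.0 and limma-voom (limma 3.58.1) replaced the test, and RLE or total counts the scaling. The filter was left out or replaced by a minimum of 10 counts in 3 libraries, which kept 15128 genes. Replicate blocks were added by title number or by crossed pair, and each library was left out in turn. The edgeR, DESeq2 and limma-voom fits without a block were also run on simulated counts of independent libraries. That simulation had no crossed pairs, and it did not cover the blocked fits or the Pot1a to Pot1b ratio. The Pot1a to Pot1b ratio had 0.5 added to each count. From the wider telomere list, 3 genes per direction were named by smallest p. Pearson's r named the genes most like the member with the highest variance relative to counting error. The members and lists were chosen with earlier results of these data known.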

Additional observations from a re-analysis of the deposited data

How the results depend on the processing

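The count of 0 telomerase and shelterin genes differing, and of 0 genes on the wider telomere list, held under all 14 alternatives, the fits without 1 library included (from 0 to 0 genes for each). Over all genes the count was 0 except with the crossed pairs as replicate block, which gave 38 genes, and it was from 0 to 0 in the fits without 1 library. The crossed pairs were read from the same counts, so the 38 genes are a description and not an independent result. The replicate numbers of the titles were not taken to pair the libraries, since the deviations of same-numbered libraries correlated at -0.54 for number 1 and -0.61 for number 3. They correlated at 0.33 for number 2, whose libraries are also a crossed pair. With these numbers as replicate block 0 genes passed, 0 of the 10 among them, and the smallest unadjusted p of the 10 was 0.453 in edgeR's test. That block changed no call.

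Of 80 log2 fold changes of the 10 genes under the 8 alternatives with all libraries, 72 kept their sign and 8 turned, all near 0 and none past the threshold. Terf2ip was 0.0027 with RLE scaling, 0.0029 with DESeq2, 0.0058 with limma-voom, 0.0021 with the replicate block, 0.0033 with the crossed replicate block and 0.037 with total counts. Total counts also turned Terf1 to 0.017 and Tinf2 to 0.016, and moved the median of all genes to 0.033. In the fits without 1 library the sign turned in 15 of 60, with ranges of -0.064 to 0.054 for Tert, 0.00079 to 0.071 for Dkc1, -0.088 to 0.031 for Terf1, -0.046 to 0.070 for Terf2, -0.043 to 0.016 for Tinf2, -0.079 to 0.052 for Terf2ip, -0.10 to -0.022 for Acd, 0.014 to 0.0995 for Pot1a, -0.082 to 0.039 for Pot1b and -0.020 to 0.032 for Rtel1. The sign turned without Ground-1 or Space-1 for Tert and Terf2, Ground-2 or Space-1 for Terf1, Ground-1 or Space-2 for Tinf2, Ground-1 for Pot1b, Ground-2, Ground-3 or Space-3 for Terf2ip and Ground-2, Space-1 or Space-3 for Rtel1. The Pot1 ratio difference stayed positive under every alternative, from 0.012 to 0.18 without 1 library. With 3 libraries a group the intervals reached -0.26 and 0.22 on the log2 scale, and differences inside them could not be told from 0.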
